A study of Mus musculus with 18 samples.

Results

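The genes of sterol and fatty acid synthesis described here are 10: the regulators Srebf1 and Srebf2, the sterol pathway enzymes Hmgcs1, Fdps, Fdft1 and Sqle, and the fatty acid enzymes Acaca, Fasn, Scd1 and Scd2. A probe set was taken as a member where the platform annotation gave 1 of these 10 names as its only symbol, and 23 probe sets did, out of 35041 with a single symbol that together cover 18193 genes. Of the 23, 17 passed the filter on low signals (16 on chip 430A and 1 on chip 430B) and were tested, with at least 1 for each of the 10 genes. All hearts came from male mice with a Tet-regulated myrAkt1 transgene, which encodes an activated form of the kinase Akt1, and with αMHC-tTA, which drives it in heart muscle cells. The 9 hearts fall into groups of 3. The first group was taken before AAC, the operation that puts a pressure load on the heart, from mice aged 8 weeks. The second group was taken 4 weeks after AAC, with a labelled age of 12 weeks. In the descriptions its replicate 3 bears the number 1, as replicate 1 does, and whether the 2 samples come from separate animals is not given, so that n = 3 at 4 weeks rests on the titles. The third group was taken at 6 weeks with Akt on, and its labelled age is 12 weeks too. The titles give 3 weeks of Akt for these last hearts and the descriptions give 2 weeks. No unoperated hearts with Akt on and no operated hearts at 6 weeks with Akt off were analysed here, so that the activation of Akt and the further time under load cannot be told apart. Unoperated or sham-operated hearts aged 12 weeks were not analysed either. Each comparison with the hearts before AAC thus mixes the operation, the load and age, and with Akt on also Akt. These cannot be told apart. Whether RNA was pooled over animals is not given in the sources used here, so that p-values measure the spread between these samples only.

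Cells make sterols and fatty acids from acetyl-CoA. The sterol branch passes from HMG-CoA through farnesyl diphosphate and squalene to cholesterol. The fatty acid branch passes through malonyl-CoA to palmitate, which desaturases turn into monounsaturated fatty acids. SREBP-1 and SREBP-2, made by Srebf1 and Srebf2, are transcription factors held in the endoplasmic reticulum until sterols run low, and insulin and Akt signalling raise the activity of SREBP-1 in liver and other tissues. The adult heart takes up most of its fatty acids from the blood and makes few itself, while fat cells express the fatty acid branch strongly.

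In hearts with Akt on, Scd2, Fdps and Fasn were higher than before AAC, and Fdft1 was lower on 1 probe set. Scd2 stood 2.86-fold, Fdps 2.07-fold and Fasn 2.75-fold above the level before AAC, and Fdft1 stood 2.28-fold below it on probe set 1438322_x_at. Hmgcs1 was 1.48-fold higher on 1 of its 4 tested probe sets, 1433446_at, which stood 1.55-fold higher at 4 weeks already without passing. At 4 weeks against before AAC the only member call was another probe set of Hmgcs1, 1433445_x_at, 1.76-fold higher. Against hearts 4 weeks after AAC, Scd2 was 2.82-fold and Fdps 1.63-fold higher with Akt on, and Fdft1 was 1.96-fold and 1.69-fold lower on 2 probe sets. Srebf1, Srebf2, Sqle, Acaca and Scd1 passed the test in none of the 3 comparisons made with limma, where Srebf1 and no other of them had an unadjusted p under 0.05, in 2 comparisons. In both branches some enzymes passed and others did not. All folds are on the scale of log2(signal + 32), which understates changes of low signals.

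The 300-base windows around gene starts in RefSeq's table (build GRCm38.p6, 250 bases before the start and 50 after it) gave 7 windows for 5 of the 10 genes: Hmgcs1, Fasn, Srebf2, Acaca and Srebf1. Fdps, Fdft1, Sqle, Scd1 and Scd2 are not shown. The 3 windows printed here are shown because they belong to a sterol enzyme, to the fatty acid synthase that changed and to the regulator of the sterol branch. They lie at chr13:119690101-119690400 on the plus strand (Hmgcs1), chr11:120824498-120824797 on the minus strand (Fasn) and chr15:82147019-82147318 on the plus strand (Srebf2). Capitals mark the letters of 4 motifs searched on both strands: TCACNCCAC and its shorter relative CACCCCAC (letters of the sterol regulatory element, bound by SREBPs), CCAAT (NF-Y) and CACGTG (E-box).
Hmgcs1: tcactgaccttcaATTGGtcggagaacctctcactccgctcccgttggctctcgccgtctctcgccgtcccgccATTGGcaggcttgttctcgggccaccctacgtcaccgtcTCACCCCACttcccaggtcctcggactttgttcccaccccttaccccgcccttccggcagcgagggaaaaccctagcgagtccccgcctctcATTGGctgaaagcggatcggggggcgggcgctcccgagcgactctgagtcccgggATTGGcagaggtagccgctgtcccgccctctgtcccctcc
Fasn: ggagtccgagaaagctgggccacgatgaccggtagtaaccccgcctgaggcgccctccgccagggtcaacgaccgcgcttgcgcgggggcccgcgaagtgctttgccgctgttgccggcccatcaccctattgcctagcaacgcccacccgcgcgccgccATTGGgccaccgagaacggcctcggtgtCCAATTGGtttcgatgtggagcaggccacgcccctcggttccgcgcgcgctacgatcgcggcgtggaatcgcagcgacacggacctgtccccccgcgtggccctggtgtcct
Srebf2: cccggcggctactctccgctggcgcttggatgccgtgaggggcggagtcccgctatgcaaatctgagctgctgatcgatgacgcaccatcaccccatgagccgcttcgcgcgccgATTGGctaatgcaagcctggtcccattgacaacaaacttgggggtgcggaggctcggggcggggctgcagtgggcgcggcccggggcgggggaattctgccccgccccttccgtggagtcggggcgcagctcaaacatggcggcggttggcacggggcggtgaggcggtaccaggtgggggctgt
TCACNCCAC was found in 1 of the 7 windows, that of Hmgcs1, 137 bases before the start, and in 1.24% of all 32851 windows of the table. CACCCCAC was found at the same place in Hmgcs1, overlapping the longer motif, and in 2.87% of all windows. CCAAT was found in 5 of the 7 windows, against 37.4% of all. It occurred 4 times in Hmgcs1, 3 times in Fasn, where 2 of the matches overlap, and 1 time in Srebf2. CACGTG was in 7.15% of all windows and in 0 of these 7. Only exact matches were searched, so that near matches to these motifs stay in lower case and were not counted.

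Signals are MAS5 intensities on a linear scale. As deposited they stood at a common level on each chip, with a trimmed mean of 500.2 on every 430A array and 122.51 on every 430B array. Of the probe sets for Akt1, 1425711_a_at read 708, 383 and 496 before AAC, 571, 821 and 917 at 4 weeks, and 2614, 3762 and 6535 with Akt on, where it was 5.13-fold above the 4-week level (adjusted p = 0.00277, limma). The other 2 tested Akt1 probe sets differed by 0.01 and -0.02 log2 in that comparison. The 6 markers of heart muscle cells on chip 430A summed to 129375 to 139681 before AAC, 109044 to 113898 at 4 weeks and 101204 to 118729 with Akt on, so that both later groups lay below the hearts before AAC. Of the 6, Tnni3 (cardiac troponin I) fell by 0.49 log2 at 4 weeks (adjusted p = 0.0166, limma), and with Akt on against before AAC Tnni3 fell by 0.48 and Myh6 (α-myosin heavy chain) by 0.38 (adjusted p = 0.00631 and 0.0320), while none passed with Akt on against 4 weeks. The 5 atrial markers summed to between 4697 and 91519, and the ranges of the 3 groups overlapped. The hearts highest in atrial transcripts were replicate 2 before AAC, replicate 1 at 4 weeks and replicate 1 with Akt on. The 3′ to 5′ ratio of the β-actin control on chip 430A, a measure of RNA quality that is higher in degraded RNA, was 1.49 to 2.04 before AAC, 1.14 to 1.21 at 4 weeks and 1.04 to 1.22 with Akt on. Its exact two-sided permutation p was 0.1 for each later group against the hearts before AAC, the smallest that 3 hearts against 3 can give, and 0.4 between the later groups.

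Srebf1, whose product drives the fatty acid branch, had signals of 948, 1104 and 964 before AAC, 898, 733 and 592 at 4 weeks, and 1343, 824 and 1259 with Akt on (probe set 1426690_a_at). Every 4-week heart lay below every heart before AAC, while the hearts with Akt on overlapped both other groups. The log2 difference was -0.44 at 4 weeks against before AAC (adjusted p = 0.204), 0.59 with Akt on against 4 weeks (adjusted p = 0.130) and 0.15 for Akt on against the hearts before AAC (0.658), all adjusted p-values by limma with Benjamini-Hochberg adjustment. None passed. The 95% interval with Akt on against 4 weeks ran from 0.16 to 1.02 before adjustment for the number of probe sets tested.

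Srebf2, whose product drives the sterol branch, had signals of 673, 678 and 622 before AAC, 527, 583 and 459 at 4 weeks, and 813, 494 and 528 with Akt on (1452174_at). The 4-week hearts again lay below those before AAC without overlap, and the hearts with Akt on were spread on both sides. The log2 difference with Akt on was 0.19 against 4 weeks, with an interval from -0.21 to 0.58, and -0.13 against before AAC, from -0.52 to 0.26. The other probe set, 1426744_at, differed by between -0.16 and -0.06 log2 in the 3 comparisons.

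**Figure D1:**
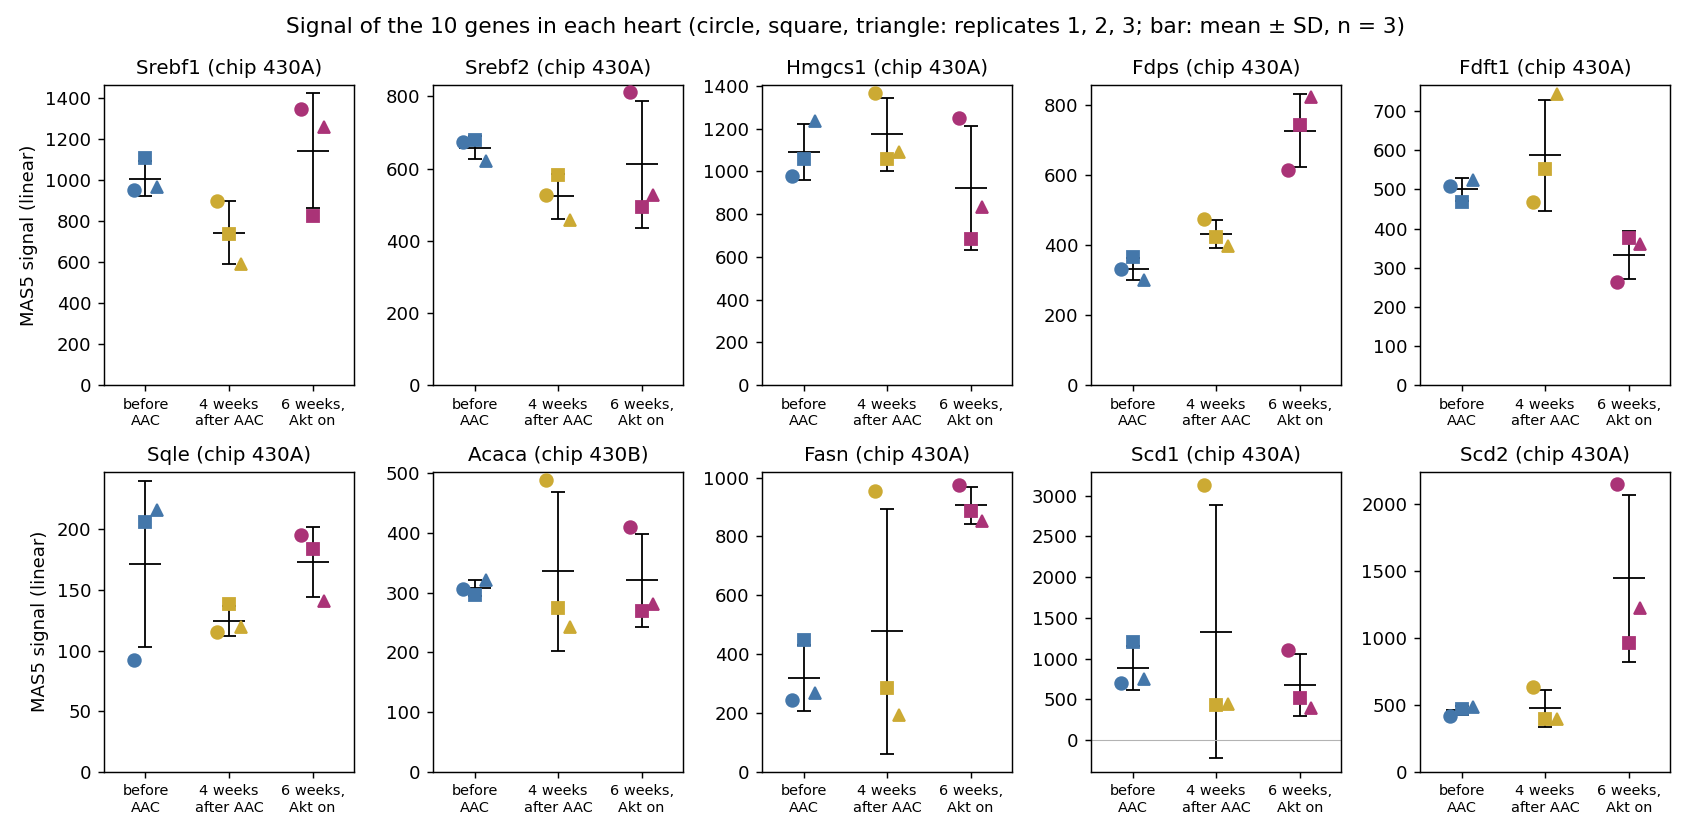
MAS5 signal (linear, from 0 except where an error bar runs below it) of the probe set with the highest mean signal for each of the 10 genes, in hearts before AAC, at 4 weeks and at 6 weeks with Akt on. Points are single hearts and bars the mean ± SD of 3. Fdps and Scd2 with Akt on lie above all other hearts, Fdft1 with Akt on lies below them, and replicate 1 at 4 weeks stands apart in Scd1 (3126), Fasn (955) and Acaca (489).

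Hmgcs1 makes HMG-CoA for the sterol branch, and its 4 tested probe sets did not move together. On 1433445_x_at the signals were 556, 713 and 599 at 4 weeks, against 340, 325 and 348 before AAC. The 2 groups did not overlap, and this probe set rose by 0.82 log2 (SE 0.21, adjusted p = 0.0462, limma). The probe sets 1433444_at (0.86, adjusted p = 0.0706) and 1433446_at (0.63, adjusted p = 0.0540) also had all 4-week hearts above all hearts before AAC and did not pass. The probe set with the highest mean signal, 1433443_a_at, read 1368, 1059 and 1092 at 4 weeks, against 979, 1060 and 1235 before AAC, a difference of 0.10 with an interval from -0.34 to 0.53. As the mean of its 4 tested probe sets, Hmgcs1 was 0.60 log2 higher at 4 weeks and passed (adjusted p = 0.0332, limma). With Akt on against before AAC this mean differed by 0.15 and did not pass (adjusted p = 0.502).

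With Akt on, Hmgcs1 probe set 1433446_at read 217, 274 and 331, against 179, 179 and 161 before AAC. It rose by 0.56 log2 (SE 0.17, adjusted p = 0.0455, limma), while the differences of the other 3 ran from -0.27 to 0.26. Against 4 weeks, 1433446_at differed by -0.07 log2 with Akt on (adjusted p = 0.881, limma). In that comparison 1433445_x_at was 0.75 log2 lower with Akt on and did not pass (adjusted p = 0.0836). Both Hmgcs1 calls were close to the threshold. The call at 4 weeks was lost without any 1 of the 6 hearts compared, with an adjusted p of up to 0.157. The call with Akt on was lost without any 1 of the 9 hearts other than replicate 1 with Akt on, also with an adjusted p of up to 0.157. The β-actin ratio given above also separates both later groups from the hearts before AAC. Its part in this and every other comparison with those hearts was not tested. Probe set 1441536_at on chip 430B read 2.99 to 30.2 over the 9 hearts and lay below the filter.

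Fdps makes farnesyl diphosphate, from which squalene, other isoprenoids and protein prenyl groups are built. Its signals on 1423418_at were 331, 365 and 301 before AAC, 475, 422 and 396 at 4 weeks, and 614, 742 and 822 with Akt on. The 3 groups did not overlap, with means of 332 ± 31.8, 431 ± 40.1 and 726 ± 105 (SD, n = 3 each). Fdps rose with Akt on by 0.71 log2 against 4 weeks (SE 0.15, adjusted p = 0.0287) and by 1.05 log2 against before AAC (adjusted p = 0.00164). The first of these steps, 0.35 at 4 weeks against before AAC, did not pass (adjusted p = 0.191).

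The rise of Fdps against before AAC passed without each of the 9 hearts in turn. Against 4 weeks it passed without 5 of the 9, and was lost without replicate 2 or 3 with Akt on and without replicate 2 or 3 at 4 weeks, with an adjusted p of up to 0.104. The second Fdps probe set, 1438150_at, read 1.7 to 17.1 in the 9 hearts and lay below the filter.

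Fdft1, squalene synthase, takes the next step and joins farnesyl diphosphate into squalene. On 1438322_x_at the signals were 403, 481 and 458 before AAC, 369, 345 and 426 at 4 weeks, and 166, 136 and 244 with Akt on. The hearts with Akt on lay below all others, and Fdft1 on this probe set fell by 0.97 log2 against 4 weeks (SE 0.19, adjusted p = 0.0187) and by 1.19 log2 against before AAC (adjusted p = 0.00242). The ending _x_at marks a probe set with probes that may also match other transcripts.

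The Fdft1 probe set 1448130_at read 262, 376 and 361 with Akt on, against 467, 553 and 743 at 4 weeks, and fell by 0.75 log2 (adjusted p = 0.0478). Against before AAC (510, 467 and 523) its difference of -0.56 did not pass (adjusted p = 0.0629), though the groups did not overlap there either. The probe set 1438918_at read 113 to 157 with Akt on, against 125 to 175 at 4 weeks and 126 to 168 before AAC, and differed by -0.12 log2 in both comparisons. Its interval against 4 weeks, from -0.56 to 0.33, does not hold the fall of either other probe set. The fourth, 1438919_x_at, lay below the filter, with means of 105 with Akt on, 113 at 4 weeks and 152 before AAC. As the mean of its 3 tested probe sets, which disagree in size, Fdft1 with Akt on differed by -0.61 log2 against 4 weeks (adjusted p = 0.0374, limma). Against before AAC this mean differed by -0.62 (adjusted p = 0.0155), and both passed.

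The fall of Fdft1 1438322_x_at against before AAC passed without each heart in turn. Against 4 weeks it was lost without replicate 2 with Akt on or replicate 3 at 4 weeks (adjusted p of up to 0.0818). The fall of 1448130_at against 4 weeks was lost without any 1 of the 9 hearts except replicate 1 at 4 weeks, with an adjusted p of up to 0.163. Fdps and Fdft1 take consecutive steps, and with Akt on the probe sets that passed were higher for Fdps and lower for Fdft1.

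Sqle, squalene epoxidase, had signals of 92.5, 206 and 216 before AAC, 115, 139 and 119 at 4 weeks, and 195, 184 and 141 with Akt on. The hearts with Akt on lay above those at 4 weeks without overlap, and replicate 1 before AAC was lower than all other hearts. The difference with Akt on against 4 weeks was 0.39 log2 (interval -0.19 to 0.96, adjusted p = 0.474), and that against before AAC was 0.07.

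Acaca makes malonyl-CoA, the committed step of fatty acid synthesis. On chip 430B its probe set 1434185_at read 306, 297 and 322 before AAC, 489, 275 and 243 at 4 weeks, and 411, 270 and 281 with Akt on. Replicate 1 was the highest of its group at 4 weeks and with Akt on, and the groups overlapped. The log2 differences were 0.06 at 4 weeks against before AAC, -0.02 with Akt on against 4 weeks and 0.03 with Akt on against before AAC, with intervals within -0.52 and 0.55. The Acaca probe set 1427595_at on chip 430A lay below the filter, at 65.4 to 126 over the 9 hearts.

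Fasn, fatty acid synthase, builds palmitate from malonyl-CoA. Its only probe set, 1423828_at, read 244, 447 and 267 before AAC, 955, 283 and 193 at 4 weeks, and 974, 887 and 854 with Akt on. The hearts with Akt on lay close together and above all hearts before AAC, while replicate 1 at 4 weeks lay among them. Fasn rose by 1.46 log2 with Akt on against before AAC (SE 0.42, adjusted p = 0.0353, limma) and did not pass against 4 weeks, where the difference was 1.18 (adjusted p = 0.153). Without replicate 1 at 4 weeks, Fasn with Akt on was 1.81 above 4 weeks and passed (adjusted p = 0.00419). The rise against before AAC was lost without any 1 of the 3 hearts with Akt on and without replicate 1 or 3 before AAC, with an adjusted p of up to 0.112.

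Scd1 and Scd2 are stearoyl-CoA desaturases, which put the first double bond into saturated fatty acids. In the mouse Scd1 is the main form of liver and fat, and Scd2 is abundant in brain. Scd2 on 1415822_at read 419, 468 and 485 before AAC, 634, 394 and 396 at 4 weeks, and 2147, 959 and 1223 with Akt on. Each heart with Akt on exceeded all 6 of the other groups, replicate 1 most. Scd2 rose by 1.49 log2 against 4 weeks (SE 0.26, adjusted p = 0.0107) and by 1.51 log2 against before AAC (adjusted p = 0.00362).

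The second Scd2 probe set, 1415823_at, read 653, 346 and 763 with Akt on, against 286, 260 and 193 at 4 weeks, a difference of 1.10 that did not pass (adjusted p = 0.0816). Against before AAC (207, 245 and 97.8) it rose by 1.53 log2 (adjusted p = 0.00814). The third, 1415824_at, read 148, 157 and 246 with Akt on, against 46.2, 105 and 48.8 at 4 weeks and 105, 139 and 95.3 before AAC, so that here too all 3 hearts with Akt on lay highest, with no test because the set is below the filter. The 3 Scd2 calls passed without each heart in turn, except that 1415822_at against 4 weeks had an adjusted p of 0.0502 without replicate 3 at 4 weeks.

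Scd1 on 1415964_at read 700, 1198 and 752 before AAC, 3126, 428 and 440 at 4 weeks, and 1105, 520 and 391 with Akt on. Replicate 1 at 4 weeks stood far above all other hearts, and the groups overlapped. The log2 differences were -0.01 at 4 weeks against before AAC, -0.46 with Akt on against 4 weeks (interval -1.78 to 0.87) and -0.47 with Akt on against before AAC (interval -1.80 to 0.86). Without replicate 1 at 4 weeks, the difference was -0.93 at 4 weeks against before AAC (adjusted p = 0.179) and turned to 0.46 with Akt on against 4 weeks (adjusted p = 0.554). The second Scd1 probe set, 1415965_at, lay below the filter, at 67.8 to 135, and was also highest in replicate 1 at 4 weeks. Whether Scd1 and Scd2 differ in their change was not tested.

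**Figure D2:**
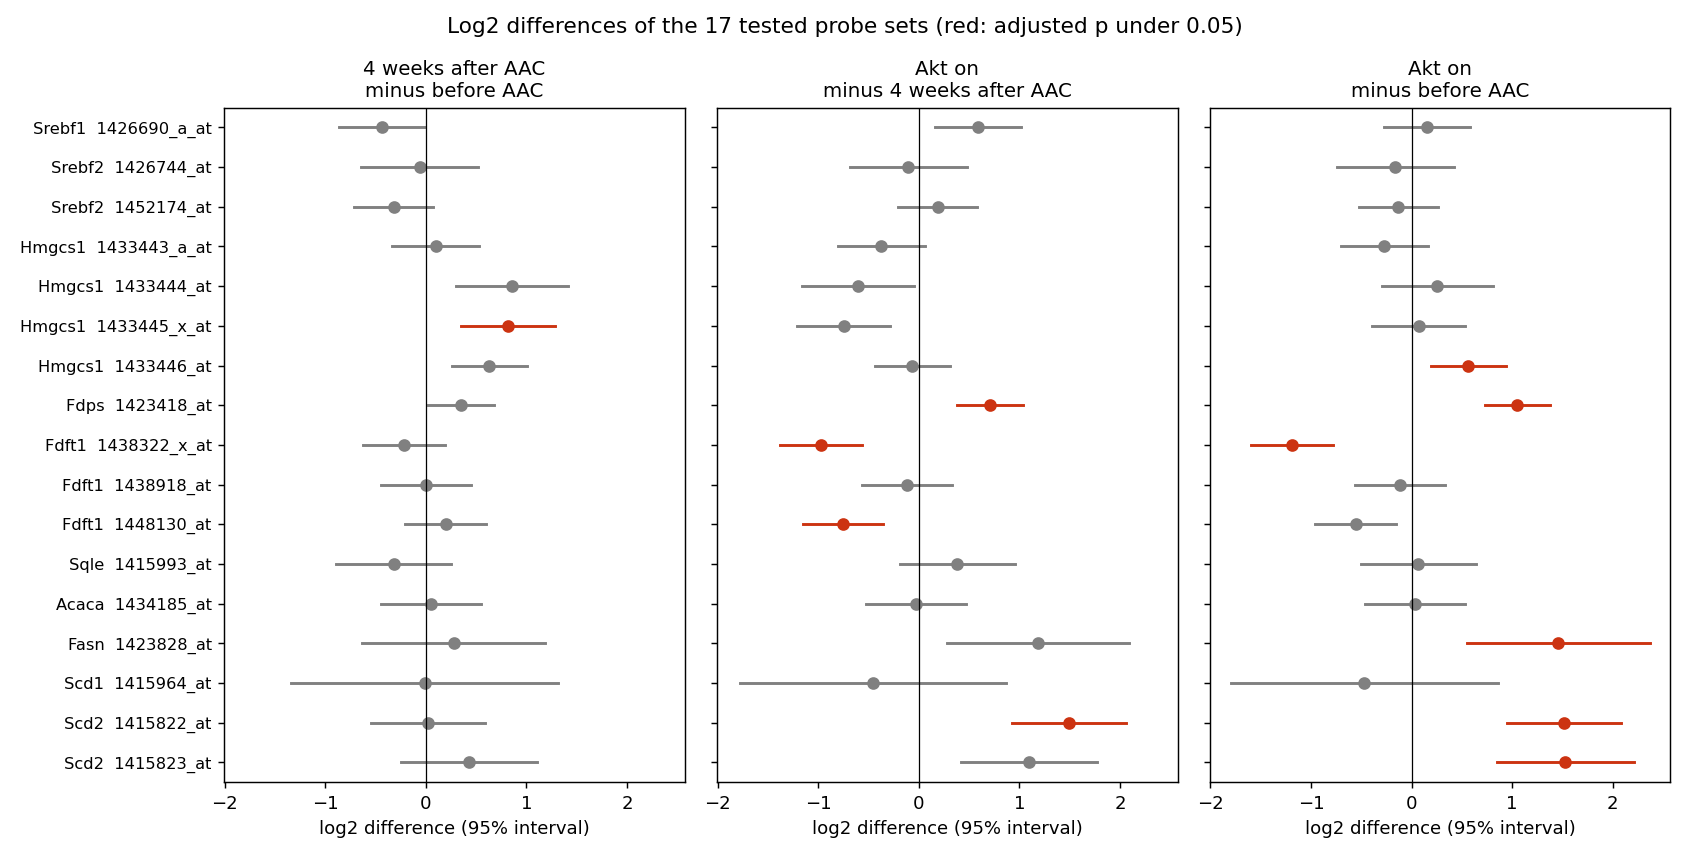
Log2 difference (points) with its 95% interval (lines) for the 17 tested probe sets in the 3 comparisons, in red where the adjusted p was under 0.05. With Akt on, both Scd2 probe sets, Fdps and Fasn lie to the right and Fdft1 1438322_x_at to the left in both comparisons, and Scd1 has the widest intervals.

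In counts, 1 of the 17 member probe sets (5.88%) passed at 4 weeks against before AAC, where 5.59% of all 21852 tested probe sets passed. The 1 rose, where 3.59% of all rose, and 0 fell, where 2% of all fell by limma (1 member, Srebf1, was lower at an unadjusted p under 0.05). Between Akt on and 4 weeks, 4 of 17 (23.5%) passed, where 3.3% of all did. 2 of them rose, where 1.41% of all rose, and 2 fell, both of Fdft1, where 1.89% of all fell. Between Akt on and the state before AAC, 6 of 17 (35.3%) passed, where 15% of all did. 5 of them rose, where 8.25% of all rose, and 1 fell, where 6.77% of all fell. Probe sets of 1 gene are not independent: the 11 calls belong to 5 genes. The comparisons share their hearts in pairs, so that the 3 counts are not independent of each other.

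The median difference of the 17 was 0.06 at 4 weeks against before AAC, -0.07 with Akt on against 4 weeks and 0.07 with Akt on against before AAC, against -0.02, 0.03 and 0.01 over all tested probe sets. The median size of the difference, whatever its sign, was 0.28, 0.59 and 0.27 log2 for the members, against 0.23, 0.21 and 0.27 for all. The counts depended on single hearts. At 4 weeks against before AAC the count was 0 without any 1 of the 6 hearts compared and 3 without replicate 1 or replicate 3 with Akt on. For Akt on against 4 weeks it was 2 without replicate 2 or 3 with Akt on or replicate 2 at 4 weeks, and 0 without replicate 3 at 4 weeks, where Scd2 1415822_at had an adjusted p of 0.0502. For Akt on against the hearts before AAC it ran from 4 to 6. With replicates 1 and 3 at 4 weeks, which share a number in the descriptions, averaged into 1 sample, Fdps (adjusted p = 0.0577) and Fdft1 1438322_x_at and 1448130_at (0.0546 and 0.0613) no longer passed with Akt on against 4 weeks, and Fasn did (1.28 log2, adjusted p = 0.0269). Hmgcs1 1433445_x_at at 4 weeks against before AAC was then lost (adjusted p = 0.0802). With Akt on against before AAC, Hmgcs1 1433446_at was lost (adjusted p = 0.0523) and Fdft1 1448130_at passed in addition (adjusted p = 0.0325).

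Fat cells make much of the fatty acid branch, and the fat cell hormone Adipoq read 30, 209 and 93.4 before AAC, 459, 8 and 44.6 at 4 weeks, and 338, 9.3 and 37.6 with Akt on. The heart highest in Adipoq was in each group also the heart highest in Scd1 and in atrial transcripts, and it was highest in Fasn in each group too. Of the 10 markers on the adipocyte list 8 were matched here, and their sum on chip 430A, most of it Lpl and Plin4, which heart muscle also expresses, was 17266 to 18247 with Akt on, 22365 to 24753 at 4 weeks and 26869 to 31182 before AAC. Lep and Cidec stayed between 10.6 and 56.8 in the 9 hearts, under the filter at 127. Other markers of the list did not follow Adipoq in every group. Retn was highest in replicate 1 before AAC (319), replicate 1 at 4 weeks (316.5) and replicate 2 with Akt on (278). Lipe was highest in replicate 1 before AAC (572), replicate 3 at 4 weeks (520.5) and replicate 1 with Akt on (531). Pparg, under the filter, read 10.4, 9.7 and 17 with Akt on, against 42.3, 39 and 91.3 at 4 weeks and 73, 40.3 and 67.6 before AAC. By limma, Plin4 fell by 0.69 log2 at 4 weeks against before AAC (adjusted p = 0.0407) and by 0.94 with Akt on against before AAC (0.00526). Lpl fell with Akt on by 0.44 against 4 weeks (0.0394) and by 0.73 against before AAC (0.00145). No marker of the list rose. The part of these falls in the member results was not tested. In RNA of whole tissue, fewer cells of a type and less RNA per cell cannot be told apart.

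**Figure D3:**
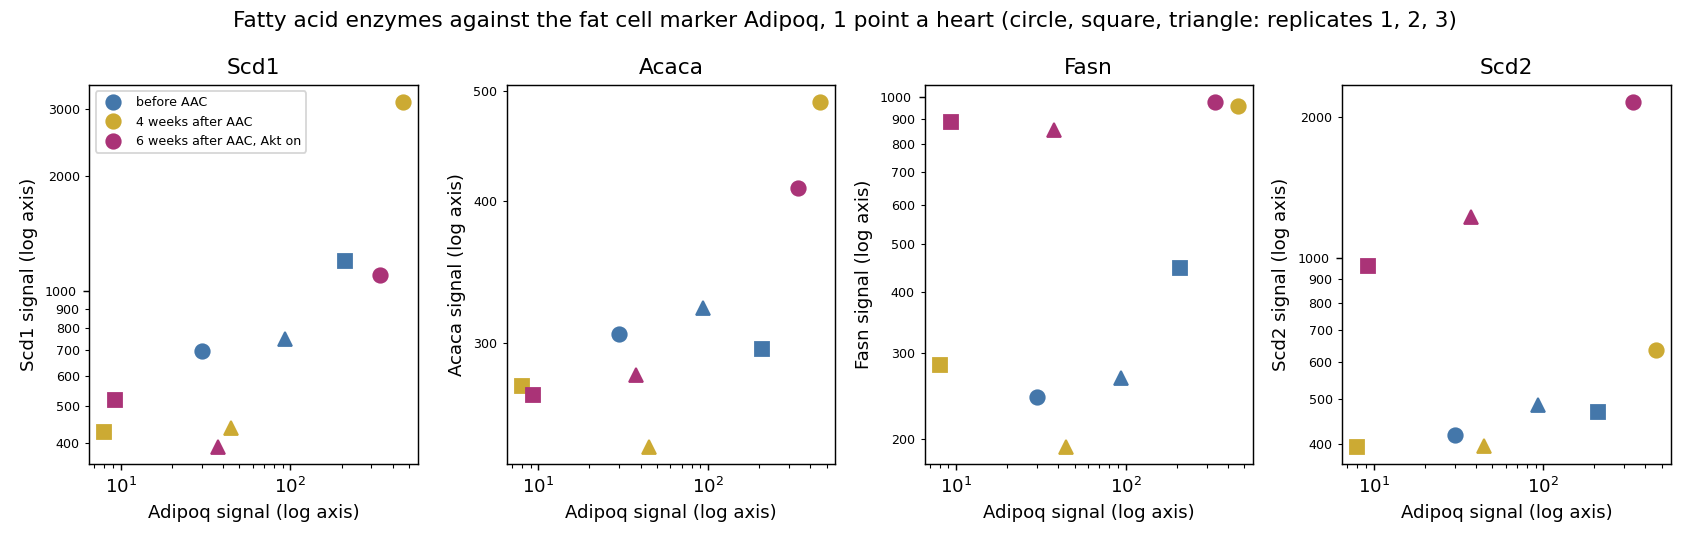
Signal of Scd1, Acaca, Fasn and Scd2 (vertical, log axes) against that of the fat cell marker Adipoq (horizontal, log axes), 1 point a heart, coloured by group. Scd1 is highest in the hearts with most Adipoq, while Fasn and Scd2 with Akt on lie high at Adipoq signals of 9.3 and 37.6 as well as at 338.

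Without the heart highest in Adipoq of each group, a comparison added after the data had been seen that leaves 2 hearts a group, Fasn rose with Akt on by 1.76 log2 against 4 weeks (adjusted p = 0.00708) and by 1.65 against before AAC (adjusted p = 0.00330). Scd2 1415822_at rose by 1.39 (adjusted p = 0.0106) and 1.21 (adjusted p = 0.00638), and Fdps rose by 0.88 against 4 weeks (adjusted p = 0.0384). Scd1 then differed by 0.05 with Akt on against 4 weeks and by -0.65 against the hearts before AAC (adjusted p = 0.0516). The Fdft1 falls against 4 weeks no longer passed (adjusted p = 0.104 and 0.0854). With Adipoq as a covariate over all 9 hearts, Fasn with Akt on against 4 weeks was 1.24 (adjusted p = 0.0465, limma) and Scd2 1415822_at was 1.53 (adjusted p = 0.00108). With the mean of the atrial markers Myl4, Myl7 and Sln as the covariate instead, Fasn was 1.09 and did not pass (adjusted p = 0.0759). Scd2 1415822_at was then 1.43 (adjusted p = 0.00307).

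Markers of other cell types differed between groups too. Of 6 fibroblast markers 3 rose with Akt on against 4 weeks, where 1.41% of all tested probe sets rose. They were the collagens Col1a1, Col1a2 and Col3a1. The list summed to 35454 to 54469 with Akt on, against 25245 to 39151 at 4 weeks. The rises of Col1a2 and Col3a1 were lost without replicate 2 with Akt on and without replicate 2 or 3 at 4 weeks, and that of Col1a1 without any 1 of the 9 hearts but replicate 3 with Akt on (adjusted p of up to 0.149). The 6 endothelial markers summed to 9468 to 9976 before AAC, 6003 to 7949 at 4 weeks and 6042 to 6324 with Akt on, so that the hearts at 4 weeks already lay below those before AAC. Kdr, a receptor for VEGF, fell by 0.94 log2 at 4 weeks against before AAC (adjusted p = 0.0129, limma), where 2% of all tested probe sets fell. Kdr, Tek and Tie1 fell with Akt on against before AAC, where 6.77% of all fell. With Akt on against 4 weeks 0 of the 6 passed. The lipid droplet gene Cidea, on the brown adipocyte list, rose with Akt on, at 1038, 1197 and 1138, against 774, 765 and 617 at 4 weeks (adjusted p = 0.0373, up to 0.133 without single hearts), while Ucp1 of the same list stayed between 12.3 and 89.3 in all 9 hearts. Of 8 Schwann cell and myelin markers 5 were matched. They summed to 2617 to 3024 with Akt on, 2066 to 2334 at 4 weeks and 2277 to 3016 before AAC, most of it Pmp22. Of these markers 3 were past the filter, and 0 passed in any comparison by limma. The part of these shifts, and of that in the heart muscle markers, in the member results was not tested.

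Of 17 other sterol synthesis enzymes 9 had a tested probe set, and none passed in any of the 3 comparisons by limma. Of the 12835 genes with a tested probe set, 5.13% passed at 4 weeks against before AAC and 3.72% with Akt on against 4 weeks. With Akt on against before AAC 14.8% passed. At an unadjusted p under 0.05, 2 of the 9 were lower at 4 weeks against before AAC. With Akt on, 3 were higher against 4 weeks and 1 was higher against before AAC. Among all 21852 tested probe sets 5012, 4037 and 6465 had such a p in the 3 comparisons (4 weeks against before AAC, Akt on against 4 weeks, Akt on against before AAC), in either direction. All 9 differences with Akt on against 4 weeks lay above 0, from 0.01 to 0.80, with a median of 0.24, against 0.03 over the 12835 genes with a tested probe set. After quantile normalization 8 of the 9 lay above 0, with a median of 0.14, and without replicate 1 with Akt on 7 did. The median of the same 9 was -0.20 at 4 weeks against before AAC and -0.04 with Akt on against before AAC. The first and second of these comparisons share the 4-week hearts.

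Of 14 other genes of fatty acid synthesis 12 were tested. By limma 0 passed at 4 weeks against before AAC and 0 with Akt on against 4 weeks, with 3 and 2 at an unadjusted p under 0.05. Among all 21852 tested probe sets 5012 and 4037 had such a p in these 2 comparisons. Against the hearts before AAC, 1 rose and 2 fell with Akt on, where 14.8% of the 12835 genes passed. Me1, malic enzyme, which supplies NADPH for fatty acid synthesis, rose by 1.15 log2, at 1855, 3035 and 4160 with Akt on, against 1411, 1230 and 1190 before AAC (adjusted p = 0.00705). Acacb, the acetyl-CoA carboxylase of muscle whose malonyl-CoA restrains fatty acid oxidation, fell by 0.60 log2 (adjusted p = 0.0474). Elovl5, an elongase of polyunsaturated fatty acids, fell by 0.72 log2 (adjusted p = 0.0370).

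Among 9 tested regulators, Thrsp, a lipogenic protein induced by thyroid hormone in liver, read 2962, 3345 and 7095 with Akt on, against 1027, 1622 and 1424 before AAC, and rose by 1.61 log2 (adjusted p = 0.00335). Insig2, which holds SREBPs in the endoplasmic reticulum, rose at 4 weeks by 0.86 log2 against before AAC (adjusted p = 0.0301) and with Akt on by 0.67 (adjusted p = 0.0395). Mlxipl, the carbohydrate-responsive factor ChREBP, read 801, 660 and 524 with Akt on, against 1258, 1143 and 1348 before AAC, and fell by 0.90 log2 (adjusted p = 0.00394). Of the 9, 1 passed at 4 weeks against before AAC, where 5.13% of the 12835 genes did. With Akt on against before AAC 3 passed, where 14.8% of the 12835 genes did. Against 4 weeks 0 of the 9 passed with Akt on by limma, where 3.72% did. There 2 of the 9 had an unadjusted p under 0.05, as had 4037 of all 21852 tested probe sets.

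Of 8 tested genes of cholesterol traffic, Stard4, a carrier of cholesterol in the cytosol, fell at 4 weeks by 0.67 log2 against before AAC (adjusted p = 0.0229), and Apoe, an apolipoprotein, fell with Akt on by 1.11 against before AAC (adjusted p = 0.0458). Of 6 glycerolipid genes, 3 fell with Akt on against before AAC and 1 rose, where 14.8% of the 12835 genes passed. Gpam, which starts glycerolipid synthesis, read 4233, 3449 and 3678 with Akt on, against 6752, 7198 and 6503 before AAC, and fell by 0.85 log2 (adjusted p = 0.00169). It had fallen at 4 weeks already, by 0.72 (adjusted p = 0.0127). Dgat2, which makes triglyceride, fell by 1.08 (adjusted p = 0.0109) and Agpat3, an acyltransferase, rose by 0.45 (adjusted p = 0.0404). Agpat2, which makes phosphatidic acid, read 417, 410 and 229 with Akt on, against 690, 712 and 774 at 4 weeks, and fell by 1.02 log2 (adjusted p = 0.0227). It also fell against the hearts before AAC, by 0.79 (adjusted p = 0.0248).

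Of the 15 calls in these other lists, 5 passed without each heart in turn: those of Me1, Thrsp, Mlxipl, Gpam and Dgat2 with Akt on against the hearts before AAC. The other 10 were lost without at least 1 heart, with an adjusted p of up to 0.160. Agpat2 with Akt on against 4 weeks was lost without replicate 2 or 3 at 4 weeks, and Gpam at 4 weeks against before AAC was lost without replicate 2 at 4 weeks or replicate 2 before AAC. Some of these genes have probe sets that disagree. As the mean of a gene's probe sets on its chip, Gpam differed by -0.01 with Akt on against the hearts before AAC (adjusted p = 0.973) and by 0.06 at 4 weeks. Me1 was then 0.50 higher (adjusted p = 0.0571), Dgat2 differed by -0.63 (adjusted p = 0.0610) and Elovl5 by -0.33 (adjusted p = 0.148), none of which passed.

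**Figure D4:**
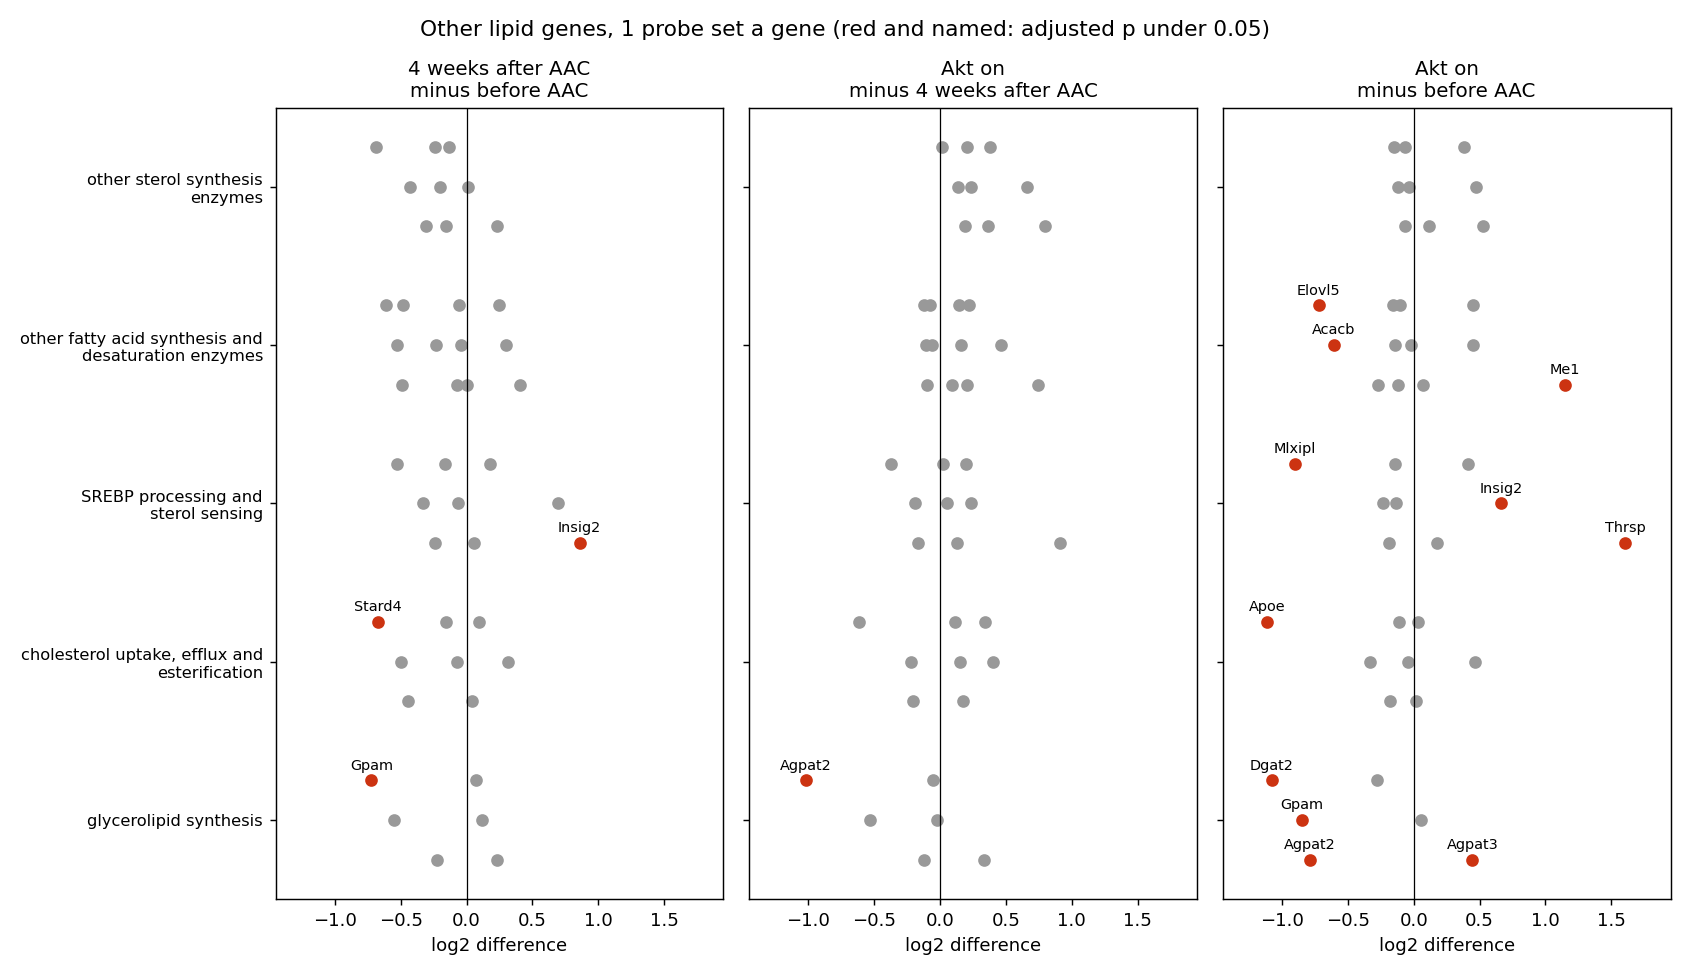
Log2 differences of the other lipid genes, 1 point a gene at its highest probe set, by list (rows) and comparison (panels); points are spread vertically only to keep them apart. The 9 other sterol enzymes lie right of 0 with Akt on against 4 weeks with none named (8 of 9 after quantile normalization), and most named genes are in the comparison with hearts before AAC.

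By likeness over the 9 hearts, the mean log2 signal of the 4 sterol enzymes was most like that of Pck2 (Pearson r = 0.93), followed by Zfp157, Rbl1, Sema6a and Zfp182 (0.91 to 0.92). The mean of the 4 fatty acid enzymes was most like that of Vsig4 (0.96), followed by Gcn1, Zfp521, Wdsub1 and Snap91 (0.93 to 0.95). These are the highest of 11831 genes, over hearts that share their groups, and are given as a description. With Akt on against 4 weeks the 4 averaged sterol enzymes went both ways. Fdps differed by 0.71 log2, Sqle by 0.39, Hmgcs1 by -0.37 and Fdft1 by -0.75, so that their mean need not follow any of them. The fatty acid mean includes Scd1, where replicate 1 at 4 weeks stood far above all other hearts (3126).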

How the data were processed

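Heart RNA from 9 samples, 3 in each of 3 groups taken from the labels, was hybridized to chips 430A and 430B. Per the labels' protocols, total RNA was isolated with Ultraspec-II and labelled with biotin by standard Affymetrix procedures. The deposited values are linear MAS5 intensities, with 1 signal for each probe set, per the submitters' processing notes. Chip description file, target and genome build are not given in the sources used here. Each array was first scaled to the mean of its chip's trimmed means, which were already nearly equal as deposited. From these values log2(signal + 32) was computed, and each chip was limited to the 60% of its probe sets with the highest means. Those with no or several symbols in GEO's platform annotation were left out, which left 21852. A model of 3 group means was fitted to each chip (R 4.3.3, limma 3.58.1, lmFit and eBayes with trend), with two-sided tests and Benjamini-Hochberg adjustment over both chips together at 0.05. The fit was tested on simulated data. A pseudocount of 32 weighs more on chip 430B, whose scale is 4.08 times lower.

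A gene's first probe set is its highest on chip 430A, or on 430B where 430A has none past the filter. Named are all members, list genes that passed (up to 5 a list in each comparison by smallest p), list genes at the extremes of the markers, and the 5 genes of highest likeness. The members and lists were chosen with earlier results of these data known. Alternatives changed scaling, pseudocount, filter, unit, variance model, samples, block and covariates, and left out hearts. The number of arrays limits the precision.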

Additional observations from a re-analysis of the deposited data

How the results depend on the processing

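Over 26 alternatives, 1272 differences of the 17 member probe sets were recomputed: 1185 kept their side of the threshold (54 of these, not called, changed sign), 63 no longer passed, 24 passed in addition and 0 of the called ones changed sign. At 4 weeks against before AAC the count of 1 became 0 with no filter, with 1 probe set a gene, without the trend, with the replicate block, with 4-week replicates 1 and 3 averaged, with the atrial covariate and without the hearts highest in Adipoq, 2 with the fat covariate (Adipoq alone, since Plin1 and Cfd were not matched), and 3 with 2 groups only or adjustment within each chip. With Akt on against 4 weeks the count of 4 became 1 with 2 groups only, and 2 with the replicate block or with 4-week replicates 1 and 3, which share a number in the descriptions, averaged. With Akt on against before AAC the count of 6 became 3 with 1 probe set a gene, which leaves fewer probe sets to count. Of the other lipid genes, Gpam at 4 weeks against before AAC turned to 0.0562 as the mean of its 2 probe sets, which disagree. Leaving out single hearts gave 0 to 3, 0 to 5 and 4 to 6. The causes were not tested. Same-numbered hearts correlated between -0.25 and 0.14 in their deviations from group means on chip 430A, and hearts of other numbers between -0.16 and 0.20. The labels name no shared day or litter. With 3 hearts a group these values cannot decide whether the replicate numbers pair the hearts. Under the block, Fdps (adjusted p = 0.0576, limma) and Fdft1 1448130_at (0.0515) no longer passed with Akt on against 4 weeks. The Hmgcs1 calls at 4 weeks (0.0548) and with Akt on against before AAC (0.0699) were lost too. Over all probe sets, the counts of 1222, 721 and 3283 ran from 139 to 1705, from 261 to 883 and from 1897 to 3596 under the other alternatives, and from 133 to 1715, from 254 to 636 and from 1602 to 3697 without single hearts. With 3 arrays a group, a difference that did not pass may still lie anywhere within its printed interval. Signals under the filter were not tested.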
